A study of Schmidtea mediterranea with 48 samples.

Results

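The 100 contigs described here were selected on their response to nr4A inhibition in planarian heads. A contig is an assembled transcript of the dd_Smed_v4 transcriptome of Schmidtea mediterranea, counted under its number with all its isoforms summed. They were chosen by their readout from the 26401 contigs counted in both heads and tails: 11860 had a mean of at least 5 CPM (counts scaled to a common library total) in the control libraries of both tissues, 8908 of these had a mean tail difference between -0.1 and 0.1, and 8898 were left once any of 12 contigs that the rule excludes by number, most of them muscle genes, had been taken out. A mean difference is nr4A(RNAi) minus control on the log2(CPM + 0.5) scale, taken week by week and averaged over the 4 weeks, and the 100 contigs with the lowest mean head difference were kept. Because the rule used these differences in all weeks, the differences between nr4A(RNAi) and control libraries are given as descriptions, with no p-value for any contig. Where contigs that passed a test of this contrast are counted, nothing is read from the count.

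The animals were of the asexual clonal strain CIW4, starved for 7 days before heads and tails were cut off, and received RNAi by feeding for 2, 3, 4 or 5 weeks, directed at nr4A or, as the control, at the nematode gene unc-22. Each of the 16 groups (head or tail, control or nr4A(RNAi), each week) held 3 libraries of polyA RNA, and each library pooled 6 animals. Whole pieces of tissue were sequenced, so fewer cells of a type and less RNA per cell cannot be told apart in any value below. Counts on contigs ranged from 13800452 to 27490960 per head library and from 13395084 to 42917781 per tail library. The targeted gene nr4A (dd_Smed_v4_12229) was below every control of its tissue and week in 24 of 24 nr4A(RNAi) libraries, with a mean of 17.5 ± 2.92 CPM against 26.7 ± 1.39 in heads and 14.6 ± 2.47 against 21.3 ± 2.51 in tails (SD, n = 12 each). The tissue labels were borne out by ndk, a gene of the head region, which had 233 to 287 CPM in control heads and 1.98 to 4.18 in control tails, and by Wnt11-2, a Wnt ligand of the tail, which had at most 0.227 CPM in control heads and at least 35.1 in control tails.

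Planarians keep a map of their body axis throughout life, and muscle cells carry much of it by expressing Wnt ligands, Wnt inhibitors and other positional genes in restricted domains. NR4A proteins are nuclear receptors that act as transcription factors, and they take part in processes as different as immunity, metabolism and neuronal function. The 100 contigs were picked as candidates for a response to nr4A loss at the head end alone.

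The label "lowered in head only" did not describe most of these contigs. The lowering was carried by 4 of the 12 nr4A(RNAi) head libraries, namely week 2 replicate 2, week 4 replicate 2, and week 5 replicates 1 and 2. In these libraries the median contig lay 1.56, 1.88, 2.93 and 2.12 below the control mean of its week on the log2 scale, whereas in the other 8 the median ran from -0.06 to 0.40. Nor was the tail unaffected. The same contigs were low in nr4A(RNAi) tail week 2 replicate 1, by a median difference of -2.70. They were also low in a control tail, week 3 replicate 1, by -0.92 from a control mean that includes this library. The other controls of that week were at 0.48 and 0.44. These deviations cancelled in the 4-week mean, which the rule required to be near 0. In all, 5 of the 100 contigs, dd_Smed_v4_43, dd_Smed_v4_135, dd_Smed_v4_648, dd_Smed_v4_11539 and dd_Smed_v4_2664, were below every control head in 3 of the 4 weeks, as were 1.63% of all 11860 contigs, and leaving the 4 libraries out did not raise their level difference. These 5 are described apart from the other 95 below because of that count, which comes from the contrast the rule used.

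**Figure D1:**
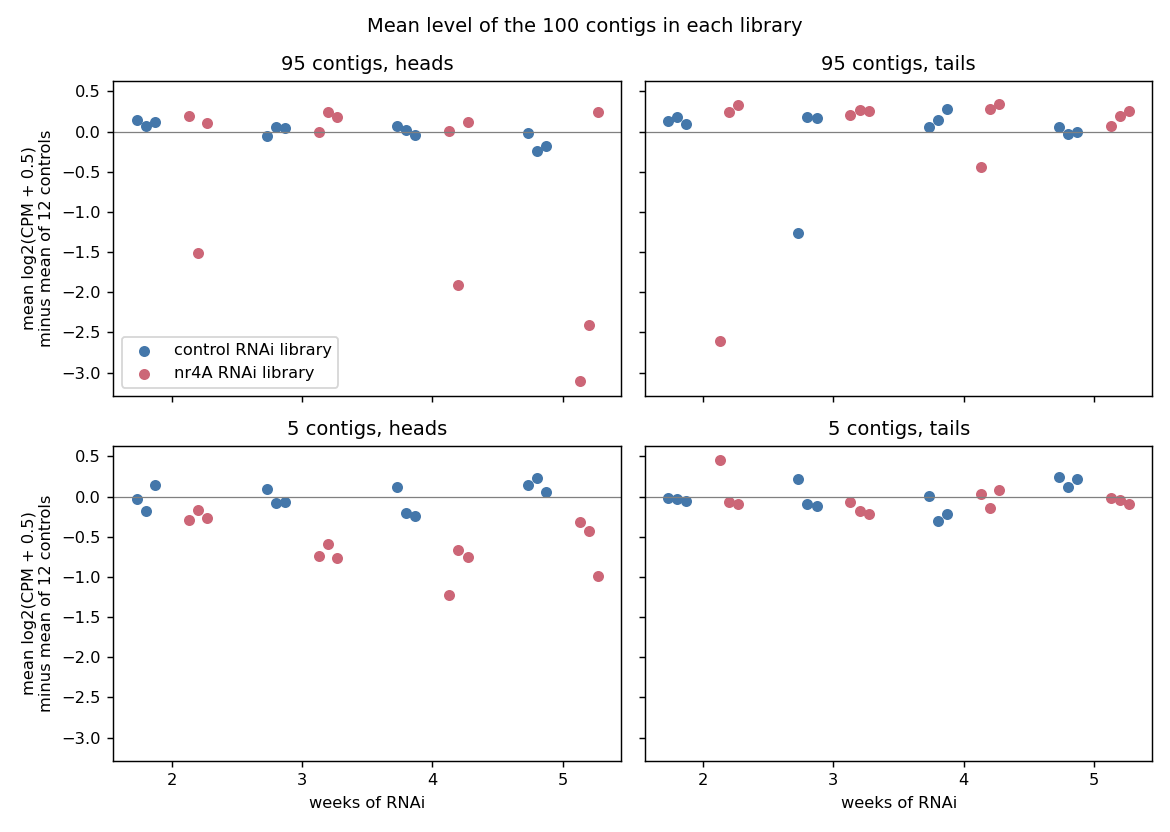
Mean level of 95 contigs (top) and of the 5 contigs below every control head in 3 weeks (bottom) in each head (left) and tail (right) library, as mean log2(CPM + 0.5) minus the mean of the 12 controls of that tissue, against weeks of RNAi. Each point is 1 library. The 95 contigs were low in 4 nr4A(RNAi) heads (-1.51 to -3.11), in 1 nr4A(RNAi) tail (-2.61) and in 1 control tail (-1.26), while the 5 contigs lay between -1.22 and -0.17 in all 12 nr4A(RNAi) heads.

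The 6 libraries (4 nr4A(RNAi) heads, 1 nr4A(RNAi) tail and 1 control tail) also stood apart over contigs other than the 100. Among the contigs past the CPM minimum that were not selected, 302, 434, 928 and 584 lay more than 1 below their median over the 24 heads in the 4 nr4A(RNAi) heads, in the order given above, and at most 25 did so in any other head. In tails the numbers were 908 in nr4A(RNAi) week 2 replicate 1 and 277 in control week 3 replicate 1, and at most 33 in any other tail. The shift was to one side, since between 8 and 65 contigs lay more than 1 above their median in these 6 libraries. The 33 belonged to nr4A(RNAi) tail week 4 replicate 1, where the median of the 100 contigs was -0.57. In each of the 6 libraries, between 95 and 100 of the 100 contigs were below every other control of that week. The rule had used these libraries and no share of all contigs is set beside these counts, so nothing is read from them.

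By week, the median head difference of the 100 contigs was -0.51 at week 2, 0.12 at week 3, -0.59 at week 4 and -1.55 at week 5. All 100 were below 0 at weeks 2, 4 and 5, which the rule had used. At week 3, the week in which no nr4A(RNAi) head stood apart, 84 were above 0, as were 7173 of all 11860 contigs. In the tail the median difference was -0.82 at week 2, 0.52 at week 3, -0.11 at week 4 and 0.16 at week 5. The largest tail differences thus fell in the weeks that held the low nr4A(RNAi) library and the low control library, with opposite signs. A single contig of the 100 kept its tail difference within 0.1 in every week. Over all 11860 contigs the weekly medians stayed between 0.02 and 0.07 in heads and between -0.01 and 0.06 in tails.

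All 3 nr4A(RNAi) heads were below all 3 controls for 6 of the 100 contigs at week 2, 6 at week 3, 7 at week 4 and 9 at week 5. The same held for 4.6%, 10.6%, 5.62% and 6.8% of all 11860 contigs in those weeks. For 84 of the 100, the groups overlapped or lay the other way in every week, 9 were below every control in 1 week, 2 in 2 weeks and 5 in 3 weeks. Over all 11860 contigs the shares were 14.3%, 2.77% and 1.63%, and as the rule used the same libraries nothing is read from the comparison. In the edgeR quasi-likelihood fit over all 24 heads, 7 of the 100 passed an adjusted p of 0.05 in the direction that had selected them, where 5.22% of the 19606 contigs tested were called lower, and because the rule used this contrast nothing is read from that count. Without the 4 libraries the same fit called 9 of the 100 lower, where 13% of 20500 contigs were, and 27 higher, where 8.91% were. Those counts also come from the contrast the rule used, with libraries left out after the data were seen, so nothing is read from them either.

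The leading contig, dd_Smed_v4_17911, shows the pattern of the 95. In control heads it had 13.8, 13.8 and 13.4 CPM at week 2, 8.61, 10.02 and 12.6 at week 3, 11.0, 10.9 and 12.3 at week 4, and 10.5, 8.41 and 10.8 at week 5. In nr4A(RNAi) heads it had 14.8, 2.61 and 12.4 CPM at week 2, 11.6, 15.6 and 13.2 at week 3, 11.2, 0.886 and 12.05 at week 4, and 0.167, 0.153 and 15.2 at week 5. The 4 low values, which rest on 36, 14, 3 and 3 counts, were far below every control, and each of the other 8 was at or above the lowest control of its week except week 2 replicate 3. In tails it had 0.465 CPM in nr4A(RNAi) week 2 replicate 1 and 2.25 in control week 3 replicate 1, against 4.87 to 14.1 in the other 22 tails. Its mean head difference of -0.96 became 0.25 once the libraries that stand apart were left out.

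The 14 contigs that followed it were dd_Smed_v4_18558, dd_Smed_v4_35980, dd_Smed_v4_23244, dd_Smed_v4_26396, dd_Smed_v4_17767, dd_Smed_v4_29455, dd_Smed_v4_19738, dd_Smed_v4_13518, dd_Smed_v4_43, dd_Smed_v4_16823, dd_Smed_v4_15498, dd_Smed_v4_18915, dd_Smed_v4_43824 and dd_Smed_v4_14566. Control heads held these leading 15 at 6.38 to 39.4 CPM on average. Their mean head differences ran from -0.96 to -0.80, and 12 of the 15 were above 0 without the libraries that stand apart. Of the 3 others, dd_Smed_v4_43 was at -1.05, dd_Smed_v4_13518 at -0.19 and dd_Smed_v4_18915 within 0.01 of 0. No gene name was paired with any of these 15 in the sources used here, and no function can be given. At the other end of the selection, dd_Smed_v4_12556, dd_Smed_v4_12463 and dd_Smed_v4_2664 were the last to be included and dd_Smed_v4_11954, dd_Smed_v4_25286 and dd_Smed_v4_4282 the first to be left out, all 6 at -0.51.

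Names were found for 2 of the 100. The contig dd_Smed_v4_3718 had KRBA2 as its best match, a human protein with the KRAB domain through which many vertebrate zinc finger proteins repress transcription. Which part of that protein the contig matched was not examined, so the domain is not ascribed to the contig. It had 67.6, 56.6 and 61.1 CPM in the week 5 control heads and 8.07, 16.02 and 95.3 in the nr4A(RNAi) heads, so the third library lay above all controls. The contig dd_Smed_v4_18379 matched HELZ2, in human a helicase that serves as a coactivator of nuclear receptors. At week 5 it had 33.7, 31.2 and 33.97 CPM in control heads and 6.46, 8.21 and 37.4 in nr4A(RNAi) heads. Both contigs were on the study's list of genes enriched in nr4A-positive muscle cells, which held 2% of the 100 contigs and 4.54% of all 11860. Without the libraries that stand apart their mean head differences, -0.53 and -0.52, were 0.24 and 0.06.

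The contig dd_Smed_v4_1312, on the list of the anterior pole in blastemas, had 329 CPM on average in control heads. At week 5 it had 282, 239 and 298 CPM in control heads and 31.4, 74.6 and 469 in nr4A(RNAi) heads. The contig dd_Smed_v4_7157, on the list of posterior pole cells, had 16.8 CPM in control heads, and its mean head difference was -0.56, or 0.06 without those libraries. The list of the anterior pole in uninjured animals and the collagens, extracellular matrix genes that planarian muscle expresses, held none of the 100 contigs. In all, 4% of the 100 were on any of the 4 lists, and 6.63% of all contigs were.

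Several other measures moved with these libraries. Mitochondrial RNA took 16.8% to 18.8% of the counts in the 4 heads, 12.6% to 13.7% in the other 8 nr4A(RNAi) heads and 12.4% to 13.5% in the 12 control heads, with no overlap, whereas the tail table has no such row. The targeted gene nr4A had 12.03 to 17.1 CPM in the 4 heads and 17.3 to 20.8 in the other 8. The single-gene marker of proliferating cells, RRM2, which makes nucleotides for DNA synthesis, had 14.6 to 17.5 CPM in the 4 heads and 10.9 to 14.5 in the other 20. In the tails it had 32.01 and 33.1 CPM in the pair of low libraries and 19.3 to 31.3 in the others. The part of any of these in the level of the 100 contigs was not tested.

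**Figure D2:**
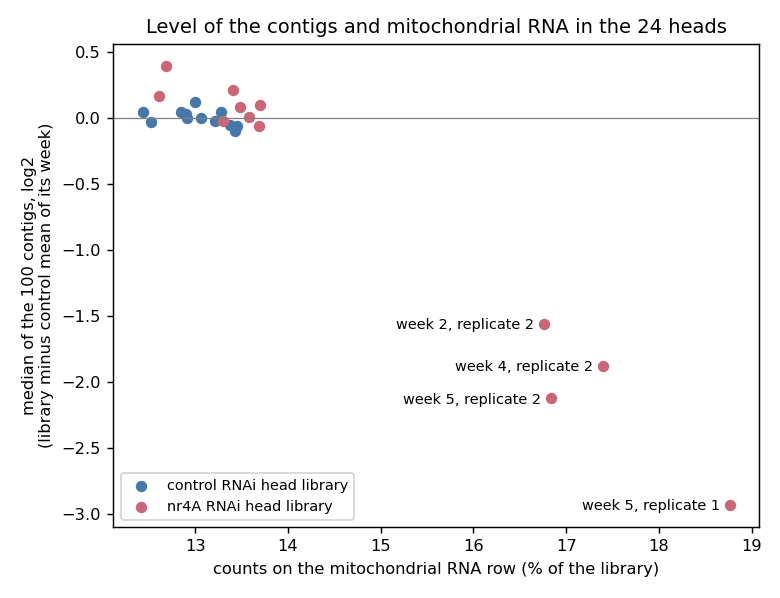
Median difference of the 100 contigs from the control mean of the same week (log2, vertical axis) against the share of the library's counts on the mitochondrial RNA row (%, horizontal axis) in the 24 head libraries. The 4 labelled nr4A(RNAi) heads have 16.8% to 18.8% mitochondrial counts and medians of -1.56 to -2.93, and the other 20 heads lie together between 12.4% and 13.7%.

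Between the 4 heads and the other 8 nr4A(RNAi) heads, marker lists of the larger cell classes differed less. The summed level of 13 muscle markers, collagens and a MyoD-like factor, was 7246 to 10018 CPM in the 4 heads, 8302 to 12463 in the other 8 nr4A(RNAi) heads and 10693 to 13837 in controls. The 5 neuronal markers summed to 725 to 804 CPM in the 4 heads and 715 to 842 in the other 8. The 2 epidermal markers, agat-1 and vim, summed to 662 to 970 and 710 to 1014 CPM. The study reports lower vim expression after nr4A RNAi, so this sum is no measure of epidermal cell number. The 5 anterior genes summed to 523 to 569 and 553 to 650 CPM. In control heads the neuronal, epidermal and anterior sums were 587 to 738, 920 to 1587 and 445 to 534 CPM. The 11 contractile markers, which the rule left out, summed to 8314 to 9738 CPM in the 4 heads and 8866 to 10930 in the other 8. Their sum in control heads was 10844 to 13262 CPM. Each of these lists overlapped between the 4 heads and the other 8, none of their genes was at 0, and none was among the 100 contigs. Depth overlapped as well, with 13800452 to 19599951 counts in the 4 heads and 17341509 to 20968782 in the other 8.

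With the 6 libraries left out, a step added after the data were seen, the median head difference of the 100 contigs moved from -0.62 to 0.16, and 14 of the 100 were still below 0, where 34.5% of all contigs were. The median tail difference moved from -0.06 to 0.06. Applying the rule again without them selected 100 contigs of which 5 were in the first selection, namely dd_Smed_v4_43, dd_Smed_v4_135, dd_Smed_v4_648, dd_Smed_v4_343 and dd_Smed_v4_11539. The newly selected set was less extreme, with a median head difference of -0.28 and the last contig at -0.22. For comparison, the mirrored rule, which takes the 100 contigs lowest in the tail with a head difference near 0, gave a median tail difference of -0.26 with all libraries and -0.29 without the 6.

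**Figure D3:**
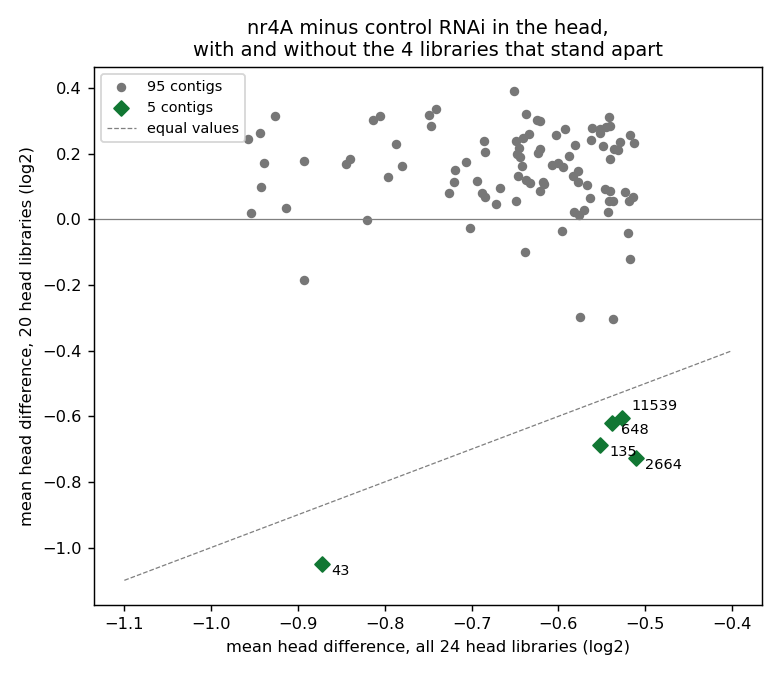
Mean difference of each of the 100 contigs in the head (nr4A(RNAi) minus control, log2) over 20 head libraries, with the 4 that stand apart left out (vertical axis), against the same value over all 24 (horizontal axis). Each point is 1 contig. Of the 95 grey points 86 lie above 0 on the vertical axis, and the 5 green diamonds lie between -1.05 and -0.60, below the line of equal values.

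Most of the 95 contigs varied together from library to library. Over the 24 heads, 92 of the 95 had a Pearson correlation above 0.9 with the mean of the other 99 contigs (lowest 0.80), and over the 24 tails 91 did (lowest 0.55). The points share libraries, and the deviations in heads are those the rule selected on. Among the 11760 contigs not selected, 13.8% in heads and 10.1% in tails exceeded 0.9 with the mean of the 100. Over the 12 control heads, none of which stood apart, the median of the 95 was 0.76, with 11 above 0.9 and 13 below 0.5 (lowest -0.39), and the median of the contigs not selected was 0.21. The least alike of the 95 in control heads was dd_Smed_v4_12585, and dd_Smed_v4_91 and dd_Smed_v4_343, which stayed at -0.30 in the head without the libraries that stand apart, had correlations of -0.29 and -0.13 there, 3 contigs named after their values were seen. The 5 contigs had correlations of -0.19 to 0.23 in heads and -0.74 to -0.39 in tails. The spread within a group was accordingly wide for the 100 contigs, with a median SD of 0.82 in heads and 0.67 in tails on the log2 scale, where the median of all contigs was 0.13 and 0.14.

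All 5 of the contigs set apart had a head difference below 0 in every week, as had 11 of the other 95 and 9.17% of all contigs. The contig dd_Smed_v4_11539 had 31.2, 28.9 and 25.1 CPM in control heads at week 2, 31.998, 34.4 and 32.9 at week 3, 32.8, 34.1 and 34.6 at week 4, and 31.8, 31.3 and 37.0 at week 5. In nr4A(RNAi) heads it had 23.1, 26.3 and 19.3 CPM at week 2, 23.4, 21.6 and 22.03 at week 3, 20.7, 27.6 and 21.7 at week 4, and 21.8, 20.1 and 19.1 at week 5. The groups overlapped at week 2 and were apart at the later weeks, where the differences were -0.56, -0.54 and -0.70. At week 5 the means were 20.3 ± 1.3 and 33.4 ± 3.1 CPM (SD, n = 3 each). In tails its differences were 0.14, -0.14, -0.22 and -0.09 at weeks 2 to 5.

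The contig dd_Smed_v4_648 had 37.3, 34.4 and 51.8 CPM in control heads at week 2, 52.1, 45.7 and 49.1 at week 3, 48.5, 47.5 and 48.04 at week 4, and 47.9, 61.3 and 43.3 at week 5. The nr4A(RNAi) heads had 35.5, 42.3 and 37.3 CPM at week 2, 28.5, 33.9 and 33.96 at week 3, 24.2, 31.4 and 33.1 at week 4, and 30.1, 33.2 and 25.3 at week 5. The groups overlapped at week 2 and were separate after it. Its tail levels, 355 to 441 CPM in controls, differed by no more than 0.06 in any week, so this was the single contig among the 100 with a tail difference within 0.1 in all 4 weeks.

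The contig dd_Smed_v4_43 was scarce in heads and abundant in tails. Control heads had 7.40, 4.76 and 10.8 CPM at week 2, 7.93, 5.84 and 7.21 at week 3, 6.69, 4.08 and 2.93 at week 4, and 6.79, 6.78 and 5.37 at week 5. In nr4A(RNAi) heads the values were 7.88, 4.64 and 5.32 CPM at week 2, 2.98, 3.76 and 3.58 at week 3, 1.35, 1.58 and 1.64 at week 4, and 3.73, 4.34 and 1.38 at week 5. The head groups did not overlap at weeks 3, 4 and 5. In tails at week 4 it had 619, 364 and 409 CPM in controls and 628, 670 and 695 in nr4A(RNAi), a difference of 0.55 in the opposite direction, and at weeks 3 and 5 the tail differences were -0.26 and -0.31.

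The contig dd_Smed_v4_135 had group means of 26.6 ± 0.39, 17.9 ± 4.6, 20.8 ± 7.3 and 27.98 ± 0.98 CPM in control heads at weeks 2 to 5, and 21.1 ± 3.5, 11.0 ± 2.6, 13.2 ± 4.2 and 19.4 ± 5.8 in nr4A(RNAi) heads (SD, n = 3 each). Its groups overlapped at week 4, with 14.8 to 28.8 CPM in controls and 8.41 to 16.01 in nr4A(RNAi), and were separate in the other weeks. In tails its difference alternated, at 0.26, -0.21, 0.28 and -0.49.

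The contig dd_Smed_v4_2664 had 8.92 ± 0.70, 9.97 ± 0.89, 9.78 ± 0.69 and 11.8 ± 0.94 CPM in control heads and 8.37 ± 2.1, 6.26 ± 0.36, 6.003 ± 2.2 and 7.96 ± 2.5 in nr4A(RNAi) heads at weeks 2 to 5. Its groups overlapped at week 2. Its highest nr4A(RNAi) values in weeks 2, 4 and 5, of 10.4, 7.91 and 10.4 CPM, were in week 2 replicate 2, week 4 replicate 2 and week 5 replicate 1, all libraries in which the 95 contigs were low. Without the libraries that stand apart, the mean head differences of the 5 contigs lay between -1.05 and -0.60, each lower than with them. In tails the differences of dd_Smed_v4_2664 were 0.11, -0.16, 0.15 and -0.32 at weeks 2 to 5. All 5 contigs were below 0 in tails at weeks 3 and 5, with medians of -0.16 and -0.31. At weeks 2 and 4 their medians were 0.11 and 0.15, and 0 and 1 of them were below 0.

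**Figure D4:**
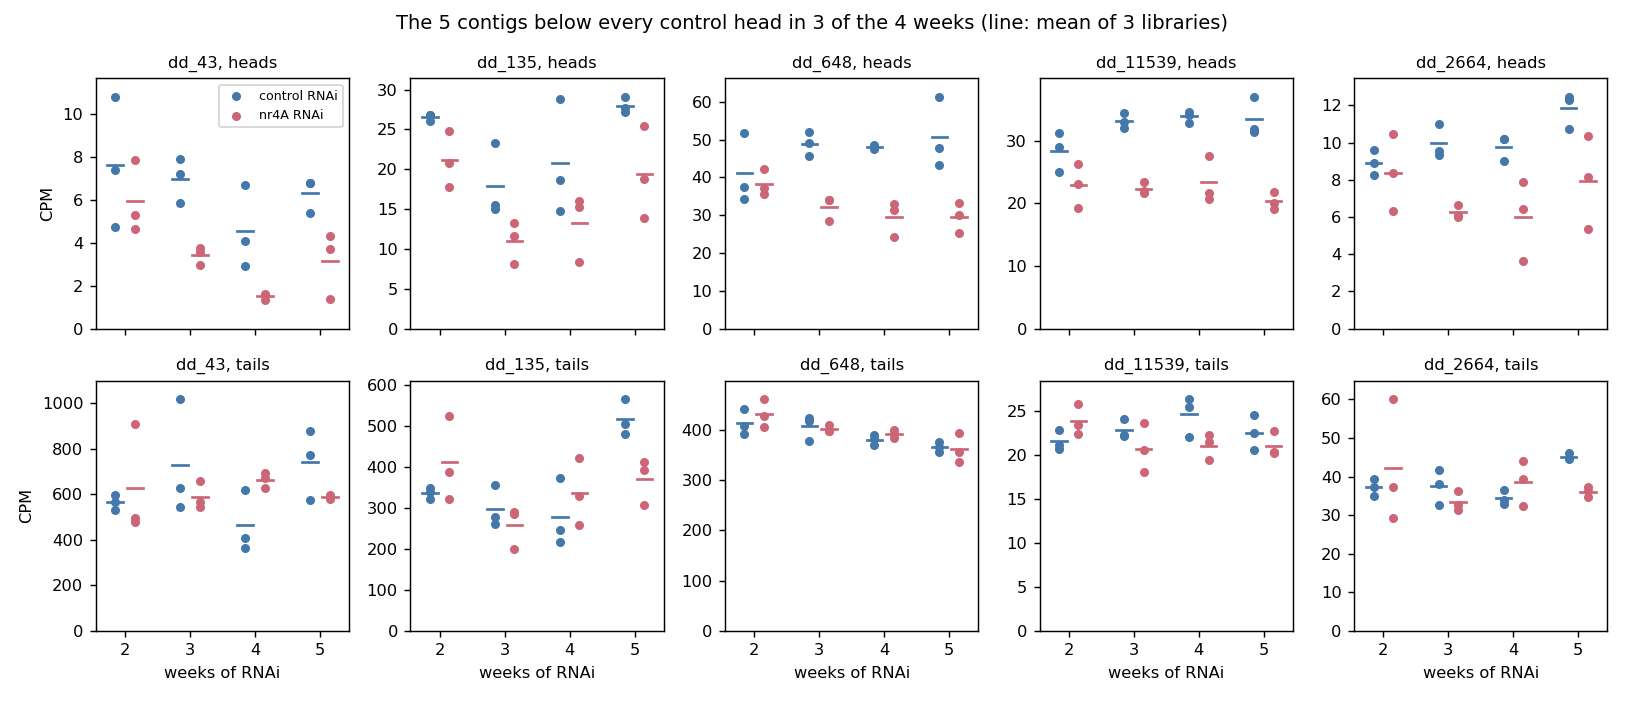
CPM of the 5 contigs below every control head in 3 of the 4 weeks, in heads (top) and tails (bottom), against weeks of RNAi. Each point is 1 library and each line the mean of 3. The nr4A(RNAi) heads are below the control heads at week 3 for all 5 contigs, and the tail values of dd_Smed_v4_43 (364 to 1018 CPM in controls) are far above its head values (2.93 to 10.8).

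Contigs chosen by the same rule on 3 of the weeks were also read in the week left out, which the choice had not used. The 100 contigs chosen without week 2 had a median head difference of -0.47 at week 2, and 9 were below every control. Those chosen without week 3 had a median of 0.07 at week 3 with 12 below every control. Those chosen without week 4 had -0.61 with 1, and those chosen without week 5 had -0.88 with 33. The shares of all 11860 contigs below every control were 4.6%, 10.6%, 5.62% and 6.8% in these weeks, so the count was above the share at weeks 2 and 5, near it at week 3 and below it at week 4. Weeks 2, 4 and 5 hold the 4 nr4A(RNAi) heads that stand apart, and in each of these weeks 99 of the 100 contigs chosen were below 0. Of all 11860 contigs, 5326, 4568 and 4825 were below 0 in those weeks. At week 3, which holds none of these heads, 30 of the 100 were below 0, where 4687 of all 11860 were. The left-out weeks are therefore not read as a repeat of the lowering. The tail did not stay flat in the week left out, with medians of -0.79, 0.28, -0.17 and 0.04, and 3, 8, 27 and 41 of 100 contigs within 0.1 of 0, where 51.5%, 51.4%, 64.1% and 44.9% of all contigs were. The sets shared 5, 6, 71 and 29 contigs with the 100.

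The difference between control heads and control tails was not itself part of the rule, but the control levels of both tissues entered it through the CPM minimum and as the level subtracted in each difference, so the counts that follow are not independent of the selection. In an edgeR quasi-likelihood fit of the 24 control libraries, 37 of the 100 were higher in heads than in tails at an adjusted p of 0.05 (35.4% of 19962 contigs) and 17 were lower (37.1%). Without the control tail that stands apart, week 3 replicate 1, these counts were 38 and 35, where 37.8% and 35.7% of 20377 contigs were called, so 1 library decided the second. Heads and tails were counted in tables made in different ways, and their library names carry separate ranges of numbers in the labels, so tissue and table cannot be told apart.

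The 4 largest differences were towards the tail and included 3 of the 5 contigs set apart. The contig dd_Smed_v4_43 had 6.38 CPM on average in control heads and 625 in control tails, a fitted log2 difference of -6.69 ± 0.16 (SE, adjusted p = 3.7e-22). The contig dd_Smed_v4_91 had 92.1 and 2861 CPM (-5.01 ± 0.10, adjusted p = 3.3e-24). The contigs dd_Smed_v4_135 and dd_Smed_v4_648 had 23.3 and 47.3 CPM in heads and 358 and 392 in tails. The contig dd_Smed_v4_2664 had 10.1 and 38.6 CPM, whereas dd_Smed_v4_11539, at 32.2 and 22.9, was higher in heads by 0.41 ± 0.05 (adjusted p = 9.4e-09). Towards the head, dd_Smed_v4_1312 had 329 against 56.8 CPM (2.46 ± 0.10, adjusted p = 1.6e-17) and dd_Smed_v4_18313 had 75.5 against 16.1 (2.15 ± 0.06, adjusted p = 2.7e-21).

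**Figure D5:**
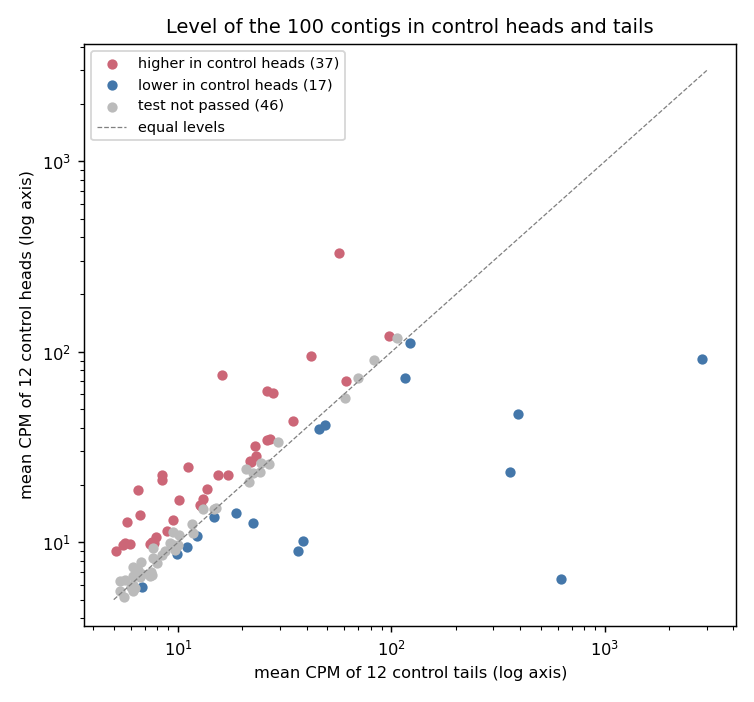
Mean CPM of the 100 contigs in the 12 control heads (vertical, log axis) against the 12 control tails (horizontal, log axis). Each point is 1 contig, coloured by the edgeR test of heads against tails at an adjusted p of 0.05. Most points lie near the line of equal levels, 37 passed as higher in heads and 17 as lower, and dd_Smed_v4_91 and dd_Smed_v4_43 are the most abundant contigs in tails.

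Within control heads, the contigs were compared between week 5 and week 2, a difference that was not itself part of the rule although the same control libraries entered it. In the edgeR fit of the 12 control heads, 30 of the 100 were lower at week 5 (6.41% of 19108 contigs) and 6 were higher (10.3%), with a median log2 difference of -0.20 where that of all contigs was -0.01. The fall was seen in dd_Smed_v4_18313 (-0.44 ± 0.05, adjusted p = 6.3e-06), in dd_Smed_v4_1312 (-0.34 ± 0.07, adjusted p = 0.0025), in dd_Smed_v4_3718 (-0.27 ± 0.06, adjusted p = 0.0025) and in dd_Smed_v4_17911 (-0.39 ± 0.11, adjusted p = 0.022). Of the 5 contigs set apart, dd_Smed_v4_2664, dd_Smed_v4_11539 and dd_Smed_v4_648 rose, by 0.49 ± 0.10, 0.31 ± 0.07 and 0.38 ± 0.12 (adjusted p = 0.0020, 0.0072 and 0.034). The count of 36 was 12 without replicate 2 of each week and 20 without replicate 3. The calls over all contigs also fell, from 1225 lower and 1965 higher of 19108 to 275 and 691 of 19179 without replicate 2. Without replicate 3 they were 841 and 1541 of 19287.

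In control tails the same comparison called 2 of the 100 higher (1.16% of 18979 contigs) and 0 lower (0.422%). At an unadjusted p below 0.05 the counts were 4 and 0, and DESeq2 called 3 higher and 0 lower. Without the control tail of week 3 that stands apart, which adds to the estimate of the spread, 4 were higher and 8 lower, where 4.14% and 2.23% of 19508 contigs were. Whether heads and tails differed in this respect was not tested.

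The contigs also differed from others in how they were assembled. In the tail table, which lists each isoform on its own row, 54% of the 100 had a single row, where 76.5% of all 11860 did. The contig dd_Smed_v4_15498 had 87 rows. Rows of the same contig were summed, so the placing of reads among them leaves its value unchanged. Contigs with many rows may also share reads with near-identical copies under other numbers. The reported single best alignment could place those reads on any of the copies, which was not tested.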

How the data were processed

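The authors prepared polyA libraries with an unstranded kit, and per the labels used CASAVA 1.7.0, Trimmomatic 0.32, Bowtie and DESeq. Reads were assigned to dd_Smed_v4 contigs by 1 best alignment, and the deposited values are raw counts per contig. The head table has isoforms merged and holds 26566 rows, of which 4 are not contigs. These took 12.4% to 18.8% of a library's counts and were left out. The tail table holds 38633 rows with isoforms apart. The deposited tables of DESeq fold changes and p-values were not used.

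Rows were summed by contig number, and CPM was computed over the contig total. The members and gene lists were chosen with earlier results of these data known. Contigs were named by a rule: the 15 with the lowest head difference, all with a name or on a list, those at the limit of the selection and those with the most unequal head and tail levels. The 5 contigs below every control in 3 weeks were singled out after their values were seen. So was the limit for a library that stands apart, over 200 contigs more than 1 below their median.

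Tests used edgeR 4.0.16 (filterByExpr, TMM, quasi-likelihood, group means, Benjamini-Hochberg adjustment) in R 4.3.3, and the SE is the fitted difference divided by the root of F. The code was tested on simulated data. Alternatives used DESeq2 1.42.0, other size factors, no filter, the replicate number as a block, other limits in the rule, and leaving out replicates, weeks or libraries. Python 3.11.15 served for the rest. Replicates were separate pools of clonal animals, and the p-values measure the spread between these pools.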

Additional observations from a re-analysis of the deposited data

Results flagged for a closer look

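The contig dd_Smed_v4_43 was the one case among the 100 contigs and 4 weeks in which every nr4A(RNAi) head was below the controls and every nr4A(RNAi) tail above them. At week 4 its difference was -1.26 in heads and 0.55 in tails on the log2 scale. The difference between the tissues was not tested, and its tail differences at weeks 3 and 5 had the other sign.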

How the results depend on the processing

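Of 206 alternative values for 14 results, 162 stayed within the spread or within 1.5 times the reported count, 43 moved further and 1 changed sign. The 14 results include the head difference of each of the 5 contigs set apart and the count of contigs below 0 in the head. The rule selected on these values, so the tally is not read as a measure of stability. Leaving out the 6 libraries that stand apart, chosen after seeing the data, turned the median head difference from -0.62 to 0.16. It left 14 of 100 contigs below 0, kept 5 of 100 under the rule, and gave 35 contigs lower in control heads than tails, 12 different between weeks in control tails, and 256 of 400 choices below every control in the week left out, where fewer libraries make separation easier by construction. Leaving out 1 replicate number or library at a time gave a median head difference of -1.02 to -0.29 and 5 to 92 contigs kept. It gave 9 to 36 lower in control heads than tails, 12 to 28 different between weeks in control heads and 0 to 9 in control tails. Between 6 and 100 were called lower by nr4A(RNAi) in the head (100 without nr4A replicate 3). Choices below every control in the week left out numbered 58 to 174, against 55 with all. Here too fewer libraries make separation easier by construction, and no share of all contigs is given, so the rise is not read as a repeat of the lowering. Without nr4A replicate 3, 5431 of all 19763 contigs tested were called lower in nr4A(RNAi) heads. The rule used this contrast, so nothing is read from the count of 100. The rule kept 63 of the 100 contigs with a pseudocount of 2, 51 with a CPM minimum of 10, 40 and 33 with a tail window of 0.05 and 0.2, and 5, 6 and 29 without week 2, 3 and 5. The cause was not tested. Equal replicate numbers were not taken as pairs, since the labels name nothing they share and only some pairs correlated above 0.1: 4 of 12 in heads (3 of them at week 2), 7 of 12 in tails and 7 of 12 between control heads and tails. As a hint from the data, 11 of 24 heads and 15 of 24 tails were closest to their own number. With the replicate block, 37 contigs were higher and 16 lower in control heads than tails, 29 differed between weeks in control heads and 3 in control tails, and 9 were called lower in nr4A(RNAi) heads. Depth limits the lowest values, since 8 of the 100 contigs had 3 counts or fewer in nr4A(RNAi) head week 5 replicate 1.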
